A study of Mus musculus with 72 samples.

Results

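The p53 pathway of cell cycle arrest and its feedback genes were followed in mouse blood after neutrons or x-rays through 10 genes: Cdkn1a, Plk2, Btg2, Ccng1, Mdm2, Ppm1d, Trp53inp1, Zmat3, Phlda3 and Sesn2. They were chosen by gene name, and each is represented by its brightest detected probe. All 10 have a probe, as do 31131 genes on the array, and all 10 were among the 16098 genes detected. Only 5 of them (Cdkn1a, Ccng1, Phlda3, Plk2 and Zmat3) were also among the 10852 genes that passed the variation filter of the study, a difference of at least 1.5-fold from the gene's median on 20% of the arrays of days 1 and 7.

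The transcription factor p53 is stabilised when DNA is broken and then activates genes that halt the cell cycle, among them Cdkn1a, whose product p21 blocks cyclin-dependent kinases. It also activates its own inhibitors, such as Mdm2, which marks p53 for destruction, and Ppm1d, a phosphatase that reverses the damage signal. Blood lymphocytes respond to radiation strongly through p53, and the transcripts of several of these genes are widely used as markers of exposure.

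Each of the 72 arrays holds the blood RNA of 1 mouse. All animals were young adult male C57BL/6 mice, and blood was taken by cardiac puncture into a stabilising solution, with globin RNA removed from the extract. The irradiated groups received 0.25 or 1 Gy from a neutron beam that also carries some γ rays, or 1 or 4 Gy of x-rays, and the controls were sham-irradiated. At day 1 there were 5 controls, 6 mice each after 0.25 Gy neutrons, 1 Gy neutrons and 1 Gy of x-rays, and 5 after 4 Gy of x-rays, while at day 7 the same groups held 6, 5, 6, 5 and 6 mice. Day 3 held 5 controls, 6 mice after 0.25 Gy neutrons and 5 after 1 Gy of x-rays. A level is the log2 of the background-corrected intensity relative to the median of the array's detected probes, so 0 is the brightness of a typical detected transcript, and levels of different probes cannot be compared with each other. A gene was called where limma gave p below 0.001 and a Benjamini-Hochberg adjusted p below 0.05 over all genes tested. Adjusted p-values of Mdm2, Ppm1d, Trp53inp1, Btg2 and Sesn2 come from the same test over all 16098 detected genes, since these did not pass the variation filter.

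Several features of the arrays bear on every value. The share of spots well above background was 40.2 to 50.3% on the arrays of 1 Gy neutrons at day 7 and 54.3 to 63.9% on those of its controls, so these groups did not overlap. Of 25 hepatocyte markers, 21 to 25 were above background on each control array of day 1, with a mean level of -1.86 to 5.60, against 7 to 12 markers and -5.19 to -3.54 in the controls of day 7. All 25 were above background on every array of 4 Gy of x-rays at day 1, at a mean level of 6.61 to 7.85, and in these mice the hepatocyte level was above that of every control of the day. The hepatocyte level ran from -1.87 to 7.11 after 1 Gy neutrons and 1.5 to 6.38 after 1 Gy of x-rays at day 1, and from -3.75 to 1.98 after 1 Gy neutrons and -5.84 to 6.29 after 4 Gy of x-rays at day 7. All 10 T cell markers and all 9 neutrophil markers with a probe were above background on every array. B cell markers were lower after radiation: their mean level of 2.31 to 3.08 in the controls of day 1 compares with -0.63 to 1.20 after 1 Gy neutrons and -1.23 to -0.07 after 4 Gy of x-rays. The erythroid markers were lower at day 1, at 0.27 to 1.86 after 1 Gy of x-rays and -1.02 to 0.79 after 4 Gy of x-rays against 2.11 to 3.15 in the controls, with 6 of 10 called lower in each. At day 7 after 1 Gy neutrons they stood at 4.78 to 5.88, against 2.25 to 3.00 in the controls. Scan dates are shared with the controls of the day by all arrays of 0.25 Gy neutrons at days 1 and 7 and by no x-ray array. In every comparison of x-rays with controls, scan date and exposure therefore cannot be told apart. The deposited table of log2 values follows the array of its own sample in 12 of 72 columns and an array of another group in 21, and whether the table or the scanner files are assigned wrongly was not settled. The names of the scanner files give the group of the label for all 72, and every value here takes each array at its label. In blood RNA of this kind, fewer cells of a type and less RNA per cell cannot be told apart. The part of these shifts in the changes of the p53 target genes was not tested, apart from fits that take the hepatocyte level into account, which are given where they end a call. A low hepatocyte level is one below the array median. It was found in 3 controls and 2 mice after 1 Gy of x-rays at day 3. At day 7 it was found in 6 controls, 5 mice after 1 Gy neutrons, 3 after 1 Gy of x-rays and 3 after 4 Gy of x-rays. Fits on these arrays alone thus hold few mice, and a lost call there cannot be credited to the hepatocyte level.

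The proximal promoters are shown for genes with and without a p53 half-site in the 250 bases before their start, so that the gene with the largest day 1 change can be read beside genes that hold the same motif and one that does not. The sequences are those of RefSeq on GRCm38.p6, 5′ to 3′ on the strand of the gene, and capitals mark every match to the p53 half-site on either strand, with no overlaps between matches. The table used here holds 9 starts of 8 of the genes, and does not include Trp53inp1 and Zmat3.
Cdkn1a (chr17:29090729-29090978, plus strand): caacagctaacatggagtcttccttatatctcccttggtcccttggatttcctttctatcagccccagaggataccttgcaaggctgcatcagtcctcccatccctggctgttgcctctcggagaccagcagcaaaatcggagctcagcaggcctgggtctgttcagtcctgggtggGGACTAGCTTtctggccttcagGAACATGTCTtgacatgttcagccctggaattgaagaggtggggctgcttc
Ccng1 (chr11:40755287-40755536, minus strand): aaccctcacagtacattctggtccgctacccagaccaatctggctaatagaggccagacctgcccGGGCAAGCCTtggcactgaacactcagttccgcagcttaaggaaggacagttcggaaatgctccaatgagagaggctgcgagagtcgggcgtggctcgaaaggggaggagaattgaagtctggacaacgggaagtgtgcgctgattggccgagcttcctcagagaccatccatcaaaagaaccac
Mdm2 (chr10:117710759-117711008, minus strand): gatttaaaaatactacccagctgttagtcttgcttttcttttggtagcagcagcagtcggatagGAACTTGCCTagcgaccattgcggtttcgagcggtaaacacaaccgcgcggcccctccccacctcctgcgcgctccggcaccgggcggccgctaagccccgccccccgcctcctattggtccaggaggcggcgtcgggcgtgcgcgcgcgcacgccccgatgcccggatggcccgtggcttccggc
Ppm1d (chr11:85311004-85311253, plus strand): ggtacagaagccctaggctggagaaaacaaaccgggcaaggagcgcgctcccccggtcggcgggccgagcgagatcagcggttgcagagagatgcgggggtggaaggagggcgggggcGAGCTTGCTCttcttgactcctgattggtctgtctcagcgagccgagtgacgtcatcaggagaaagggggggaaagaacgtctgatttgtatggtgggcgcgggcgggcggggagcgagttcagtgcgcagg
Phlda3 (chr1:135765835-135766084, plus strand): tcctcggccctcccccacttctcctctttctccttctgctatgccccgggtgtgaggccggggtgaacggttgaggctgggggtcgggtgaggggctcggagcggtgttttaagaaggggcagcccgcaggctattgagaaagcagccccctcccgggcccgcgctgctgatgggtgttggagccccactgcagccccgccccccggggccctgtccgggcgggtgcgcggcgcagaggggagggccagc

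The 2 half-sites of this Cdkn1a start begin 73 and 51 bases before it, and the other Cdkn1a start, which lies downstream at chr17:29093519-29093768, plus strand, has none. In Ccng1 the half-site begins 185 bases before the start, in Mdm2 186 and in Ppm1d 132, whereas Phlda3, Plk2, Btg2 and Sesn2 have no match in this window. A half-site was thus present in 4 of the 9 promoters, and in 7.13% of the 32851 promoters of the table. A match is a run of letters and not a bound site, and no binding was measured.

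At day 1, 5 of the 10 genes were called higher after 1 Gy neutrons, where 6.97% of all genes tested were called higher. The same number was called after 4 Gy of x-rays (16.5% of all genes tested), and 4 were called after 1 Gy of x-rays (3.1%). These were Cdkn1a, Phlda3, Ccng1 and Zmat3 in each of the 3 exposures, with Plk2 besides after 1 Gy neutrons and 4 Gy of x-rays. With the scan date as a random block 1 of the 4 calls after 1 Gy of x-rays remained, and none of these arrays shares a date with the controls. After 0.25 Gy neutrons none was called at any day, and of all genes tested 0.00921% were called at day 1, 1.17% at day 3 and 0.0276% at day 7 in either direction. At unadjusted p below 0.05, 3 of the 10 genes differed from the controls at day 1, 3 at day 3 and 1 at day 7 after this dose, beside 15.4%, 24% and 22.9% of all detected genes. Over all detected genes the shares called higher at day 1 were 5.62%, 12.8% and 2.66% for neutrons at 1 Gy and x-rays at 4 and 1 Gy, and the same genes of the 10 were called. Another background correction, normexp, subtracts the local background, fits a model to the remaining signal and adds 50 units to every spot. Adding a constant makes the log2 differences of dim spots smaller. With normexp 3 of the calls of day 1 remained after 1 Gy neutrons, 2 after 4 Gy of x-rays and 0 after 1 Gy of x-rays. In the last group the change of Cdkn1a was 1.40 (adjusted p = 0.166), that of Phlda3 1.43 (0.166) and that of Ccng1 1.00 (0.17). The median log2 change of the 10 genes was 0.70 after 1 Gy neutrons, 0.57 after 1 Gy of x-rays and 0.73 after 4 Gy of x-rays, beside -0.08, 0.00 and -0.09 for all detected genes. Irradiated mice were apart from the controls, without overlap in either direction, for 6 of the 10 genes after 1 Gy neutrons and 6 after 4 Gy of x-rays. This compares with 19.5% and 38.6% of all detected genes. After 1 Gy of x-rays it held for 4 of the 10 (8.89%) and after 0.25 Gy neutrons for 1 (2.82%).

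At day 7, 4 of the 10 were called higher after 4 Gy of x-rays (Cdkn1a, Zmat3, Phlda3 and Ccng1; 9.06% of all genes tested) and none after 1 Gy of x-rays, where 4% of all genes were called in either direction and 2 of the 10, beside 25.7% of all detected genes, had an unadjusted p below 0.05. After 1 Gy neutrons Cdkn1a alone was called among the genes that passed the variation filter, at a time when 25.1% of all genes tested were called higher and 38.3% in either direction. Among all detected genes Mdm2 was also called higher and Btg2 lower, beside 18.4% of all detected genes called higher and 17.8% lower. At day 3 Phlda3 was called after 1 Gy of x-rays (1.58% of all genes tested called higher), and no other gene of the 10. For 4 Gy of x-rays at day 7, the calls of Ccng1 and Phlda3 were lost with normexp, and those of Cdkn1a and Zmat3 were not. At day 7 irradiated mice were apart from the controls for 3 of the 10 genes after 1 Gy neutrons and 4 after 4 Gy of x-rays. This compares with 34.9% and 16.3% of all detected genes. At day 3 it held for 2 of the 10 after 1 Gy of x-rays (7.44%). The controls of days 1, 3 and 7 differed from each other in no call of these genes.

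**Figure D1:**
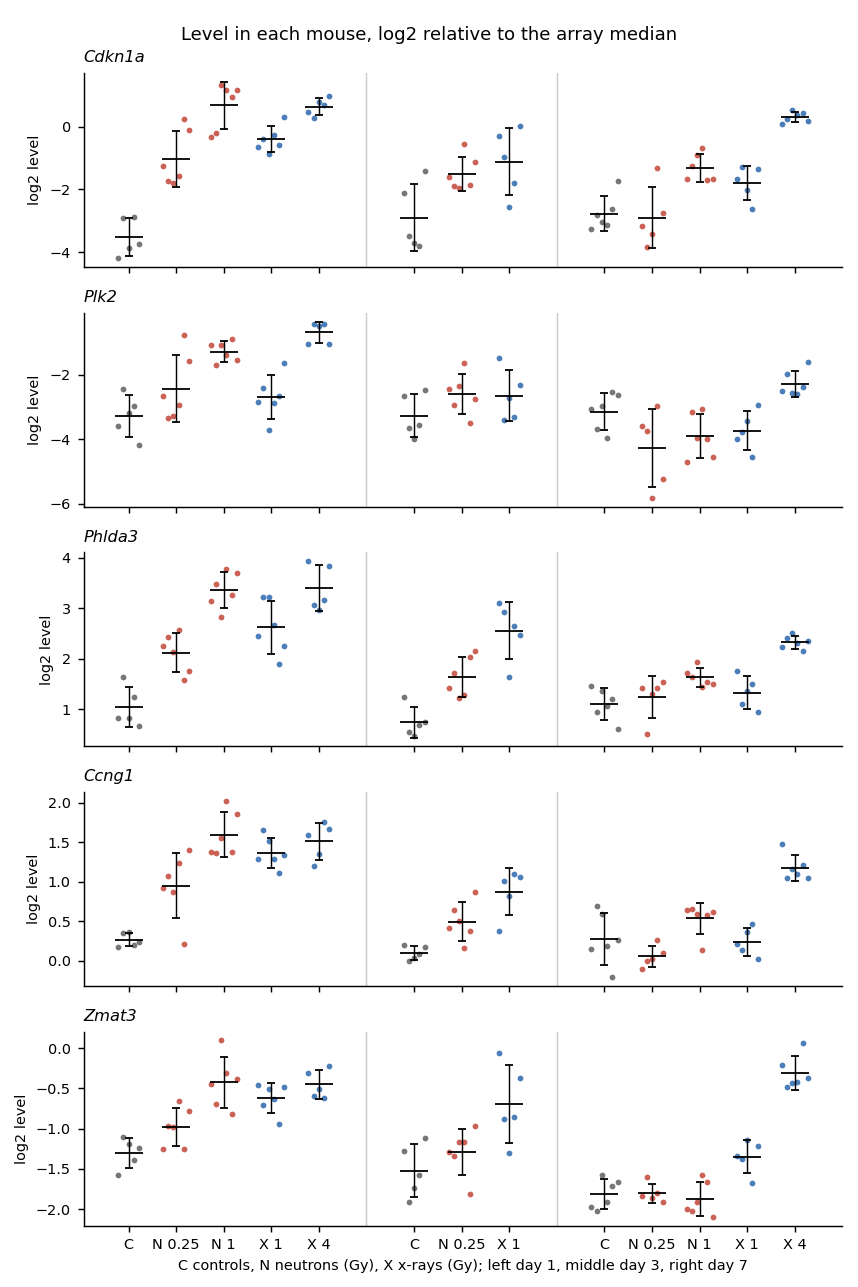
Level of Cdkn1a, Plk2, Phlda3, Ccng1 and Zmat3 in each mouse (log2 relative to the array median, vertical axis) by group (horizontal axis: C controls, N neutrons and X x-rays with the dose in Gy, days 1, 3 and 7 from left to right). Points are mice and bars the mean ± SD. At day 1 every mouse after 1 Gy neutrons or 4 Gy of x-rays lies above every control for all 5 genes. Of all detected genes, 19.5% and 38.6% were apart from the controls in these groups in either direction. At day 7 the 4 Gy x-ray group has the highest mean.

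Cdkn1a, which encodes the kinase inhibitor p21 that holds cells before DNA replication, made the largest move of the 10 genes in each irradiated group of day 1. Its level in the 5 controls of day 1 was -4.20, -2.91, -3.87, -2.87 and -3.74. After 0.25 Gy neutrons it was -1.81 at the lowest, -1.41 at the median and 0.26 at the highest, and after 1 Gy neutrons -0.32 at the lowest, 1.06 at the median and 1.32 at the highest. After 1 Gy of x-rays it was -0.87 at the lowest, -0.48 at the median and 0.32 at the highest, and in the 5 mice after 4 Gy of x-rays 0.48, 0.26, 0.78, 0.68 and 0.96. No irradiated mouse of day 1 overlapped the controls, and the mice after 4 Gy of x-rays lay closest together. Cdkn1a rose 18.3-fold after 1 Gy neutrons (log2 change 4.20, SE 0.38, adjusted p = 4.62e-05). It rose 17.7-fold after 4 Gy of x-rays (log2 change 4.15, SE 0.29, adjusted p = 1.7e-06) and 8.63-fold after 1 Gy of x-rays (log2 change 3.11, SE 0.28, adjusted p = 0.000401). After 0.25 Gy neutrons the difference was 5.59-fold (log2 2.48, SE 0.42, 95% interval 1.57 to 3.40) and was not called, with an unadjusted p of 6.12e-05 and an adjusted p of 0.0818, although all 6 mice exceeded all 5 controls. Its signal was dim in the controls of day 1, at an intensity of 28.9 to 91 units, beside the 50 units that normexp adds. The size of its change depended on the background correction. With normexp it was 2.23 after 1 Gy neutrons (adjusted p = 0.00903) and 2.11 after 4 Gy of x-rays (adjusted p = 0.00142), both called, and 0.91 after 0.25 Gy neutrons. The comparison of 0.25 Gy neutrons did pass the test without replicate 3 (adjusted p = 0.0322) or replicate 5 (adjusted p = 0.0426) of the irradiated mice. Ranked by log2 change, Cdkn1a was gene 40 of 16098 after 0.25 Gy neutrons, 8 after 1 Gy neutrons, 10 after 1 Gy of x-rays and 158 after 4 Gy of x-rays.

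The main Cdkn1a probe has 10 spots on the array and lies at chr17:29237377-29237436 in the mm9 coordinates of the files. A dimmer probe of another part of the gene was above background on none of the 5 controls of day 1 and on all 6 mice after 1 Gy neutrons, with a log2 change of 3.80 there (adjusted p = 0.000843, limma) and of 3.62 after 4 Gy of x-rays (adjusted p = 4.35e-05). With the hepatocyte level as a covariate the rise of Cdkn1a at day 1 was 4.34 after 1 Gy neutrons, 3.11 after 1 Gy of x-rays and 4.30 after 4 Gy of x-rays on the log2 scale, and each was called. After 4 Gy of x-rays the hepatocyte level did not overlap that of the controls. The covariate fit cannot separate it from exposure there, whether a gene keeps or loses its call. Of the 6 mice after 1 Gy neutrons, 4 were scanned on the date of the controls, and within that date the difference was 4.01 without overlap.

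At day 3 the Cdkn1a level was -2.12, -3.49, -3.70, -3.80 and -1.40 in the controls. It was -1.96 at the lowest, -1.74 at the median and -0.57 at the highest after 0.25 Gy neutrons and, in the 5 mice after 1 Gy of x-rays, -0.30, -0.95, -2.57, -1.81 and 0.03. Both irradiated groups overlapped the controls, of which replicates 1 and 5 stood above the other 3, and neither difference was called (log2 1.40, SE 0.45, adjusted p = 0.093 after neutrons and 1.78, SE 0.60, adjusted p = 0.12 after x-rays). At day 7 the controls were at -3.25 at the lowest, -2.93 at the median and -1.73 at the highest. The 5 mice after 0.25 Gy neutrons were at -3.17, -3.83, -3.42, -1.32 and -2.75, spread beyond the controls on both sides (log2 difference -0.13, 95% interval -1.04 to 0.78). After 1 Gy neutrons the level was -1.71 at the lowest, -1.46 at the median and -0.69 at the highest, above every control, and the 5 mice after 1 Gy of x-rays were at -1.67, -1.28, -2.02, -2.61 and -1.36. After 4 Gy of x-rays it was 0.08 at the lowest, 0.30 at the median and 0.52 at the highest, above every other mouse of the day. Cdkn1a was still 8.40-fold higher than in controls after 4 Gy of x-rays (log2 change 3.07, SE 0.23, adjusted p = 1.07e-06) and 2.73-fold higher after 1 Gy neutrons (1.45, SE 0.28, adjusted p = 0.000552). With normexp these changes were 1.79 (adjusted p = 0.00669) and 1.34 (adjusted p = 0.0065), also called. The difference after 1 Gy of x-rays was 0.98 (SE 0.31, adjusted p = 0.0733), and without replicate 6 of the controls it was 1.19 and passed (adjusted p = 0.0287).

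Ordered by the mean level of Cdkn1a, the groups of day 1 ran from 1 Gy neutrons (0.68 ± 0.74, n = 6) and 4 Gy of x-rays (0.63 ± 0.27, n = 5) through 1 Gy of x-rays (-0.41 ± 0.41, n = 6) and 0.25 Gy neutrons (-1.03 ± 0.89, n = 6) to controls (-3.52 ± 0.60, n = 5), each as mean ± SD. Of these neighbours, 4 Gy of x-rays exceeded 1 Gy of x-rays by 1.04 (SE 0.23, adjusted p = 0.00429). The difference of 0.25 Gy neutrons from 1 Gy of x-rays was -0.63 (95% interval -1.42 to 0.17, adjusted p = 0.368) and was not called. At day 7 the order was 4 Gy of x-rays (0.30 ± 0.17, n = 6), 1 Gy neutrons (-1.32 ± 0.44, n = 6), 1 Gy of x-rays (-1.79 ± 0.55, n = 5), controls (-2.77 ± 0.56, n = 6) and 0.25 Gy neutrons (-2.90 ± 0.96, n = 5). There the step from 1 Gy neutrons down to 1 Gy of x-rays was 0.47 and was not called (95% interval -0.15 to 1.08, adjusted p = 0.181).

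Plk2 encodes a polo-like kinase that acts at the checkpoints of the damaged cell, and at day 1 it was called after 1 Gy neutrons and 4 Gy of x-rays but not after 1 Gy of x-rays. Its level was -3.59, -2.44, -3.19, -2.98 and -4.17 in the 5 controls of day 1. It was -1.71 at the lowest, -1.24 at the median and -0.89 at the highest after 1 Gy neutrons and, in the 5 mice after 4 Gy of x-rays, -1.04, -0.43, -0.48, -0.42 and -1.04. After 1 Gy of x-rays it was -3.71 at the lowest, -2.75 at the median and -1.63 at the highest. The mice after 1 Gy neutrons or 4 Gy of x-rays were all above the controls, while those after 1 Gy of x-rays or 0.25 Gy neutrons (-3.35 to -0.77) spread across the control range and beyond. Plk2 rose 6.01-fold after 4 Gy of x-rays (log2 change 2.59, SE 0.31, adjusted p = 5.39e-05) and 3.95-fold after 1 Gy neutrons (1.98, SE 0.29, adjusted p = 0.000629). With normexp these changes were 1.22 (adjusted p = 0.0264) and 0.66 (adjusted p = 0.327) and were not called. After 1 Gy of x-rays the difference was 0.59 (95% interval -0.20 to 1.38, adjusted p = 0.259), and after 0.25 Gy neutrons 0.84 (-0.19 to 1.88, adjusted p = 0.38). Plk2 was 1.40 higher after 1 Gy neutrons than after 1 Gy of x-rays on the log2 scale (SE 0.29, adjusted p = 0.00653; 1.33% of all genes tested were called higher), a call lost without replicate 1, 3 or 5 of the neutron mice or replicate 1 or 4 of the x-ray mice (adjusted p up to 0.0161, with p no longer below 0.001). At day 7 the Plk2 spot was well above background on 0 of the 6 arrays of 1 Gy neutrons, so its levels there are uncertain. It was well above background on 2 of 5 arrays of 0.25 Gy neutrons, 4 of 5 of 1 Gy of x-rays and all 6 of the controls. After 4 Gy of x-rays the level was -2.60 at the lowest, -2.45 at the median and -1.61 at the highest against -3.97 to -2.54 in the controls, overlapping them, and the difference of 0.86 was not called (adjusted p = 0.0234).

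Btg2, an antiproliferative gene that represses cyclin D1 and is usually switched on by p53, was called higher in no comparison with controls. In the controls of day 1 its level was 3.24, 3.51, 3.21, 2.46 and 3.09, and in the 5 mice after 4 Gy of x-rays 2.49, 1.49, 1.73, 3.29 and 2.51. These groups overlapped, with a difference of -0.80 (SE 0.33, adjusted p = 0.0546). At day 7 it was 2.77 at the lowest, 3.11 at the median and 3.53 at the highest in the controls and 1.90 at the lowest, 2.11 at the median and 2.36 at the highest after 1 Gy neutrons. Every mouse after 1 Gy neutrons was below every control, and Btg2 fell by 1.02 on the log2 scale (SE 0.15, adjusted p = 8.79e-05). After 4 Gy of x-rays at day 7 the level was 1.87 at the lowest, 2.39 at the median and 2.87 at the highest, also low but overlapping the controls, and the difference of -0.74 (SE 0.18) had an adjusted p of 0.0069 and an unadjusted p of 0.00114, short of a call, which it reached without control replicate 2 or irradiated replicate 1 (adjusted p = 0.00466 and 0.00347). In 0.25 Gy neutrons at day 1 replicate 5 stood apart at 1.05, below all the other mice of that group. Its array also had the highest hepatocyte level of the group (8.1), whose part was not tested.

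Ccng1 encodes cyclin G1, which recruits a phosphatase to Mdm2 and so takes part in the feedback on p53. Its level was 0.18, 0.35, 0.36, 0.21 and 0.23 in the controls of day 1, a narrow range. It was 1.37 at the lowest, 1.46 at the median and 2.02 at the highest after 1 Gy neutrons and 1.11 at the lowest, 1.31 at the median and 1.66 at the highest after 1 Gy of x-rays. In the 5 mice after 4 Gy of x-rays it was 1.60, 1.20, 1.35, 1.76 and 1.67. The 3 irradiated groups covered nearly the same range and none of their mice overlapped the controls. Ccng1 rose 2.50-fold after 1 Gy neutrons (log2 change 1.32, SE 0.18, adjusted p = 0.000386). The rise was 2.37-fold after 4 Gy of x-rays (1.25, SE 0.19, adjusted p = 0.000203) and 2.14-fold after 1 Gy of x-rays (1.10, SE 0.14, adjusted p = 0.00134). The call of 4 Gy of x-rays was lost with the hepatocyte level as a covariate (1.34, adjusted p = 0.0168). At 0.25 Gy neutrons 5 of 6 mice were above all controls, and the difference of 0.69 was not called (adjusted p = 0.208), though without replicate 5 it was 0.83 and passed (adjusted p = 0.0458). At day 3 the 5 mice after 1 Gy of x-rays were at 0.38, 1.01, 0.82, 1.10 and 1.06, above the controls at 0.00 to 0.21, with a difference of 0.77 that was not called (adjusted p = 0.059) but passed without irradiated replicate 1 (0.90, adjusted p = 0.018). At day 7 it was -0.20 at the lowest, 0.22 at the median and 0.70 at the highest in the controls and 1.04 at the lowest, 1.13 at the median and 1.48 at the highest after 4 Gy of x-rays. Of the 4 irradiated groups of day 7 it was the one called and without overlap (0.90, SE 0.17, adjusted p = 0.00149), and on the arrays with a low hepatocyte level alone the change was 1.01 and missed the call (adjusted p = 0.0114).

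Mdm2, the ubiquitin ligase that degrades p53 and is itself a p53 target, was called higher at day 7 after 1 Gy neutrons and in no other comparison with controls. Its level was 3.14, 3.31, 3.12, 2.70 and 3.04 in the controls of day 1. It was 3.41 at the lowest, 3.60 at the median and 3.68 at the highest after 1 Gy neutrons and, in the 5 mice after 4 Gy of x-rays, 3.65, 3.40, 3.47, 4.07 and 3.77. Both groups lay above all controls. The differences of 0.52 after 1 Gy neutrons (SE 0.13, unadjusted p = 0.002, adjusted p = 0.00957 in limma) and 0.61 after 4 Gy of x-rays (SE 0.18, unadjusted p = 0.00573, adjusted p = 0.0133) were not called, as neither had p below 0.001. At day 7 it was 2.85 at the lowest, 3.28 at the median and 3.43 at the highest in the controls and 3.61 at the lowest, 4.05 at the median and 4.53 at the highest after 1 Gy neutrons. No mouse of the irradiated group overlapped the controls, and Mdm2 rose 1.74-fold (log2 change 0.80, SE 0.17, adjusted p = 0.00126). This call was lost without replicate 2 or 5 of the irradiated mice or replicate 6 of the controls (adjusted p 0.00322 to 0.00372, with p no longer below 0.001), and with dim spots set to missing (0.27, adjusted p = 0.155). With normexp the difference turned to -0.49 (adjusted p = 0.259). The day 7 difference after 4 Gy of x-rays was 0.37 (SE 0.15, adjusted p = 0.0645) and was not called.

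Zmat3, an RNA-binding zinc finger protein that p53 induces, rose at day 1 in 3 exposures and at day 7 after 4 Gy of x-rays. Its level was -1.58, -1.10, -1.20, -1.39 and -1.24 in the controls of day 1 and -0.82 at the lowest, -0.41 at the median and 0.10 at the highest after 1 Gy neutrons. It was -0.95 at the lowest, -0.57 at the median and -0.46 at the highest after 1 Gy of x-rays and, in the 5 mice after 4 Gy of x-rays, -0.31, -0.59, -0.51, -0.62 and -0.22. All mice of the 3 groups were above the controls. The rises were 0.88 after 1 Gy neutrons (SE 0.20, adjusted p = 0.00461), 0.68 after 1 Gy of x-rays (SE 0.15, adjusted p = 0.0107) and 0.85 after 4 Gy of x-rays (SE 0.19, adjusted p = 0.00204) on the log2 scale. Leaving out 1 mouse ended the call in 8 of 11 cases after 1 Gy neutrons (not without irradiated replicate 2, 3 or 5), 9 of 11 after 1 Gy of x-rays (not without control replicate 2 or irradiated replicate 5) and 9 of 10 after 4 Gy of x-rays (not without irradiated replicate 4), with adjusted p up to 0.0144, 0.0311 and 0.00622. The call of 4 Gy of x-rays was also lost with the hepatocyte level as a covariate (1.02, adjusted p = 0.0426), and in all 3 exposures with normexp (adjusted p = 0.149, 0.36 and 0.0529). At day 7 it was -2.03 at the lowest, -1.81 at the median and -1.58 at the highest in the controls and -0.49 at the lowest, -0.40 at the median and 0.07 at the highest after 4 Gy of x-rays. The 4 Gy mice stood clear of all other mice of that day, and Zmat3 rose 2.83-fold against the controls (log2 change 1.5, SE 0.15, adjusted p = 1.15e-05). After 1 Gy neutrons the day 7 level of -2.10 at the lowest, -1.96 at the median and -1.58 at the highest overlapped the control range throughout, with a difference of -0.07 (95% interval -0.40 to 0.26). The controls of day 7 were themselves lower than those of day 1, without overlap (difference -0.51, SE 0.15, adjusted p = 0.0328, not called). Of all detected genes, 8.07% were apart between these controls in either direction.

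Ppm1d, the Wip1 phosphatase that closes the damage response by removing phosphates from p53 and its kinases, was called in no comparison with controls. Its level was -0.59, -0.60, -0.68, -1.15 and -0.57 in the controls of day 1 and, in the 5 mice after 4 Gy of x-rays, -1.36, -1.90, -1.79, -0.89 and -0.93. The irradiated mice were mostly below the controls, with overlap, and the difference was -0.66 (SE 0.23, adjusted p = 0.0311). The day 1 difference after 1 Gy neutrons was -0.49 (SE 0.18, adjusted p = 0.0496, unadjusted p = 0.0213). Trp53inp1, which promotes p53 phosphorylation and autophagy, was likewise called nowhere against controls, and its differences at day 1 ran from 0.03 after 0.25 Gy neutrons to 0.56 after 1 Gy of x-rays (95% interval of the latter 0.15 to 0.96, adjusted p = 0.0606). Its level was 2.77, 2.35, 2.27, 2.05 and 2.63 in the controls of day 1 and 2.45 at the lowest, 2.97 at the median and 3.34 at the highest after 1 Gy of x-rays, and these overlapped. A second, dimmer probe of Trp53inp1 gave 0.36 after 1 Gy of x-rays, and was called nowhere either.

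Phlda3, a pleckstrin homology protein that restrains the survival kinase Akt, rose at day 1 in 3 exposures, at day 3 after 1 Gy of x-rays and at day 7 after 4 Gy of x-rays. Its level was 0.83, 1.63, 0.83, 1.26 and 0.67 in the 5 controls of day 1. It was 2.82 at the lowest, 3.37 at the median and 3.78 at the highest after 1 Gy neutrons and 1.91 at the lowest, 2.57 at the median and 3.22 at the highest after 1 Gy of x-rays. In the 5 mice after 4 Gy of x-rays it was 3.93, 3.07, 2.97, 3.17 and 3.84. All these mice exceeded all controls, and after 0.25 Gy neutrons (1.59 to 2.58) the lowest mouse fell within the control range. Phlda3 rose 5.11-fold after 4 Gy of x-rays (log2 change 2.35, SE 0.27, adjusted p = 4.33e-05) and 5.00-fold after 1 Gy neutrons (2.32, SE 0.24, adjusted p = 7.93e-05). The rise was 2.99-fold after 1 Gy of x-rays (1.58, SE 0.27, adjusted p = 0.00367). After 0.25 Gy neutrons the difference was 1.08 (SE 0.25, adjusted p = 0.153), lower than after 1 Gy neutrons by a margin that was called (1.24, SE 0.24, adjusted p = 0.0334).

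At day 3 Phlda3 was the gene of the 10 that passed. The controls were at 1.24, 0.55, 0.48, 0.69 and 0.75 and the 5 mice after 1 Gy of x-rays at 3.10, 2.92, 1.64, 2.65 and 2.47. The groups were apart, and Phlda3 rose 3.52-fold (log2 change 1.82, SE 0.29, adjusted p = 0.0331), a call that was lost in 7 of 10 fits without 1 mouse (adjusted p up to 0.128), but not without irradiated replicate 1 or 3 or control replicate 1. It was also lost with the hepatocyte level as a covariate (1.84, adjusted p = 0.0871) and with spike-in centring (1.03, adjusted p = 0.188). On the arrays with a low hepatocyte level alone, 2 irradiated mice and 3 controls, it was lost as well (1.39, adjusted p = 0.357). At day 7 the level was 0.61 at the lowest, 1.14 at the median and 1.46 at the highest in the controls and 2.15 at the lowest, 2.33 at the median and 2.52 at the highest after 4 Gy of x-rays, without overlap (change 1.22, SE 0.16, adjusted p = 0.00012). The day 7 difference after 1 Gy neutrons was 0.52 (SE 0.17, adjusted p = 0.019) and was not called, and after 1 Gy of x-rays 0.22 (95% interval -0.22 to 0.67). Sesn2, a sestrin that curbs the growth regulator mTORC1, was called in no comparison with controls, with log2 differences between -0.30 (1 Gy of x-rays, day 1) and 0.42 (4 Gy of x-rays, day 1). Its level was 0.40, 0.79, 0.38, 0.65 and 0.57 in the controls of day 1, 0.71, 1.25, 0.86, 1.46 and 0.60 in the 5 mice after 4 Gy of x-rays and 0.00 at the lowest, 0.35 at the median and 0.40 at the highest after 1 Gy of x-rays, so both irradiated groups overlapped the controls. The 95% intervals were -0.58 to -0.03 and -0.01 to 0.85, and the adjusted p-values from limma 0.118 and 0.0851.

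**Figure D2:**
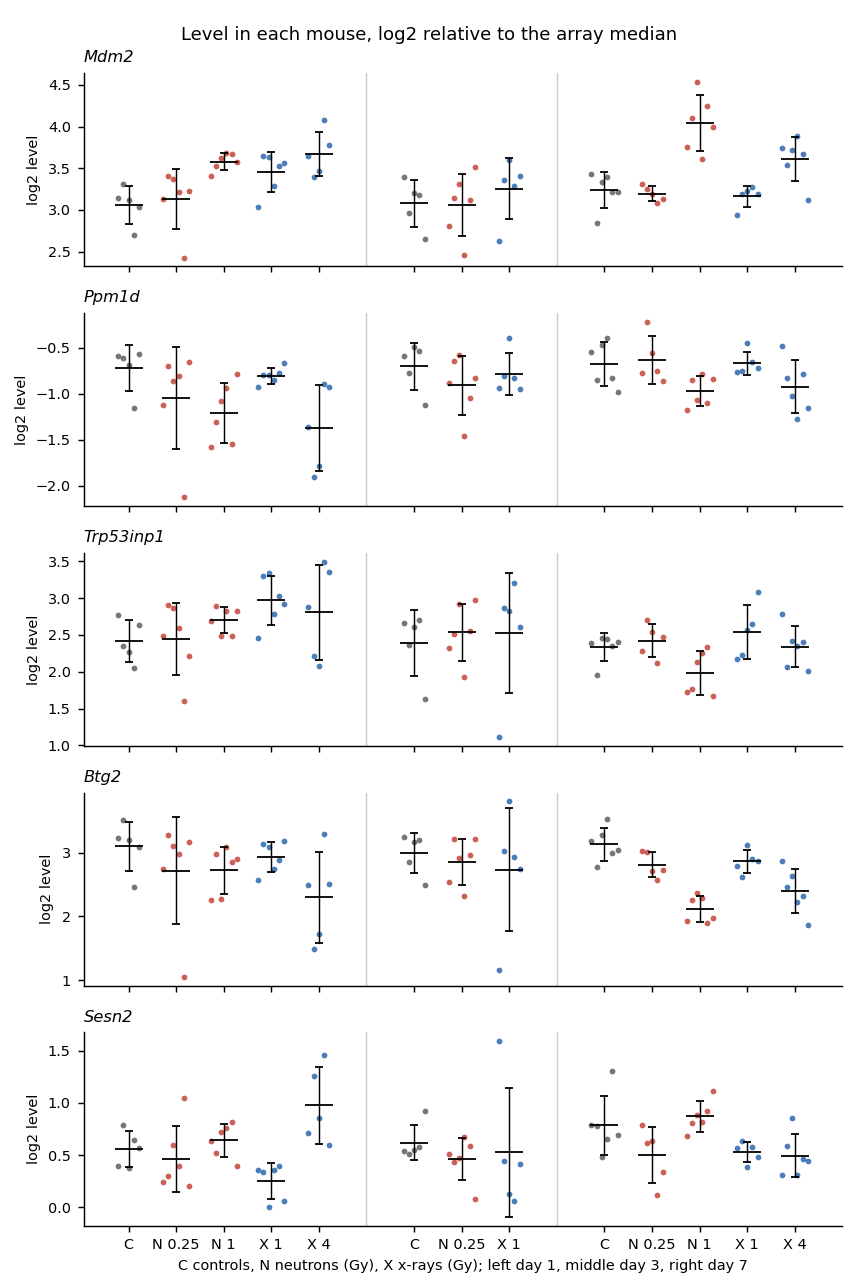
Level of Mdm2, Ppm1d, Trp53inp1, Btg2 and Sesn2 in each mouse (log2 relative to the array median, vertical axis) by group (horizontal axis: C controls, N neutrons and X x-rays with the dose in Gy, days 1, 3 and 7 from left to right). Points are mice and bars the mean ± SD. Most groups overlap. For Mdm2 every mouse lies above the controls after 1 Gy neutrons and 4 Gy of x-rays at day 1. The same holds after 1 Gy neutrons at day 7, where every mouse lies below the controls for Btg2. Of all detected genes, 19.5%, 38.6% and 34.9% were apart from the controls in these groups in either direction.

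**Figure D3:**
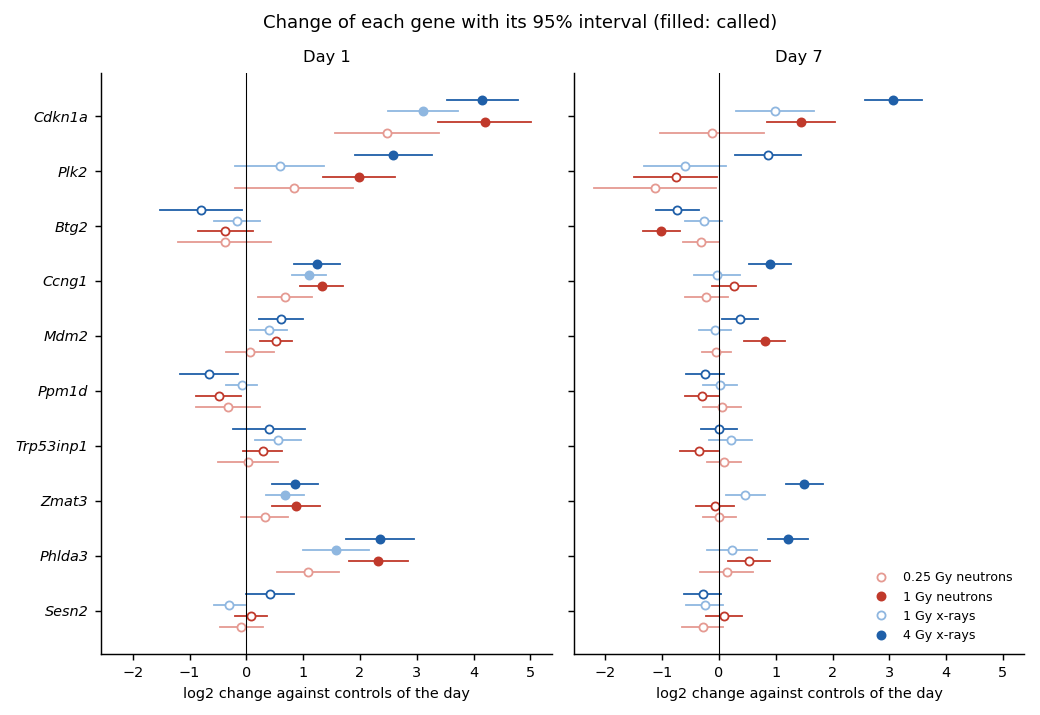
Log2 change of each of the 10 genes against the controls of the day (horizontal axis) with its 95% interval, at day 1 (left) and day 7 (right), for 4 exposures in colour; filled circles are called genes and open circles are not. Cdkn1a stands furthest to the right at day 1 in every exposure, and at day 7 the 4 Gy x-ray changes of Cdkn1a, Zmat3, Phlda3 and Ccng1 remain called.

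The changes of 1 Gy neutrons at day 7 depended on how the arrays were put on a common scale. Spike-in spots detect control RNA that the array maker's kit adds to each labelling reaction, and they give a second reference, open to differences in the amount of RNA labelled. Centred on the array median, as everywhere above, the median log2 change of all genes tested was 0.31, and centred on the 200 spike-in spots of each array it was -1.73. Every gene of the comparison lies lower by the same amount on the spike-in scale (-2.04). There Cdkn1a changed by -0.58 and Mdm2 by -1.23, below the controls, and Btg2 by -3.05. On the spike-in scale the median log2 change of all genes tested was -1.08 after 0.25 Gy neutrons and -0.90 after 1 Gy of x-rays at day 7. It was -0.79 after 1 Gy of x-rays at day 3, and it stayed between -0.22 and 0.55 in the other comparisons with controls. Of the 6 mice after 1 Gy neutrons 1 was scanned on the date of the controls, where Cdkn1a differed from their mean by 1.10, Mdm2 by 0.52 and Btg2 by -1.21. With the scan date as a block these values had adjusted p-values of 0.113, 0.216 and 0.00825 and were not called, and with dim spots set to missing Cdkn1a changed by 0.93 (adjusted p = 0.0137) and was not called. On the arrays with a low hepatocyte level alone Cdkn1a changed by 1.52 (adjusted p = 0.000791), Mdm2 by 0.86 (0.00129) and Btg2 by -0.98 (0.000267), each called.

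**Figure D4:**
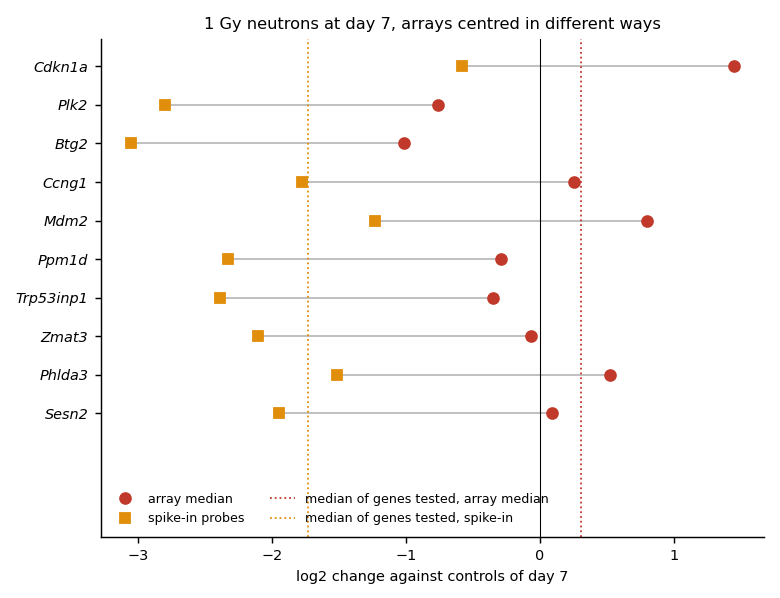
Log2 change after 1 Gy neutrons at day 7 (horizontal axis) of each of the 10 genes with arrays centred on the median of the detected probes (red circles) or on the spike-in spots (orange squares), and dotted lines at the median change of all genes tested under each. The red line is at 0.31 and the orange line at -1.73, and every square lies 2.04 to the left of its circle, as the line does.

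To compare the exposures, 1 Gy neutrons were set against 1 and 4 Gy of x-rays on the same day. Against 4 Gy of x-rays both the type of radiation and the dose differ, and these cannot be told apart there. The paper chose its doses from limited data on the relative biological effectiveness of the neutrons. The dose rate also differed between neutrons and x-rays. At day 1 none of the 10 genes was called between 1 Gy neutrons and 4 Gy of x-rays, where 0.0553% of all genes tested were called in either direction and 1 of the 10, beside 18.3% of all detected genes, had an unadjusted p below 0.05. The difference of Cdkn1a was 0.05 with a 95% interval of -0.69 to 0.78, that of Phlda3 -0.03 (-0.60 to 0.53) and that of Ccng1 0.08 (-0.37 to 0.52), on the log2 scale. Plk2 was the gene with an interval away from 0, at -0.61 (-1.10 to -0.11, adjusted p = 0.225), lower after neutrons. Against 1 Gy of x-rays at day 1, Plk2 was called higher after neutrons, as given above, and Cdkn1a was higher by 1.09 without a call (SE 0.33, adjusted p = 0.033).

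At day 7, 5 of the 10 genes were called lower after 1 Gy neutrons than after 4 Gy of x-rays (10.9% of all genes tested called lower, 41.9% in either direction). The difference was -1.62 for Cdkn1a (SE 0.20, adjusted p = 1.34e-05) and -1.57 for Zmat3 (SE 0.16, adjusted p = 2.37e-06). It was -0.70 for Phlda3 (SE 0.15, adjusted p = 0.000902) and -0.64 for Ccng1 (SE 0.15, adjusted p = 0.00227). For Plk2, not above background after neutrons, the measured values had an adjusted p of 0.000352 in limma. A floor was also tried, with Plk2 set no lower than the dimmest spot well above background on each neutron array. With this floor the level after 4 Gy of x-rays was 1.36-fold higher, a difference of 0.44 without an error. The floor is no strict limit, as a spot not well above background can be brighter than it. With normexp none of the 5 genes was called. The differences of Cdkn1a, Zmat3, Phlda3 and Ccng1 were then -0.45 (adjusted p = 0.114), -0.28 (0.151), -1.14 (0.0269) and -0.59 (0.063), and that of the measured Plk2 values turned to 0.77. Cdkn1a and Zmat3 were called with the scan date as a block (-1.98 and -1.79), where Phlda3 and Ccng1 were not (adjusted p = 0.0366 and 0.141), and on the arrays with a low hepatocyte level alone (-1.59 and -1.66), where Phlda3, Ccng1 and Plk2 were not (adjusted p = 0.0195, 0.0118 and 0.0115). The call of Ccng1 was lost in 11 of 12 fits without 1 mouse (not without x-ray replicate 6), and that of Phlda3 in 3 of 12 (neutron replicate 5 and x-ray replicates 2 and 3). Against 1 Gy of x-rays at day 7, none of the 5 genes past the variation filter was called (23% of all genes tested in either direction), whereas among all detected genes (20%) Mdm2 was higher (0.88, SE 0.17, adjusted p = 0.00226) and Btg2 lower (-0.75, SE 0.15, adjusted p = 0.00227) after neutrons. All 6 neutron mice were above all 5 x-ray mice for Mdm2 and below them for Btg2, and 24.7% of all detected genes were apart in either direction. These calls were lost without x-ray replicate 1 for Mdm2 and x-ray replicate 3 for Btg2. The difference of Mdm2 turned to -0.50 with normexp and -0.22 with spike-in centring, and neither gene was called with the scan date as a block (adjusted p = 0.0213 and 0.0172) or on the arrays with a low hepatocyte level alone (0.0174 and 0.032).

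**Figure D5:**
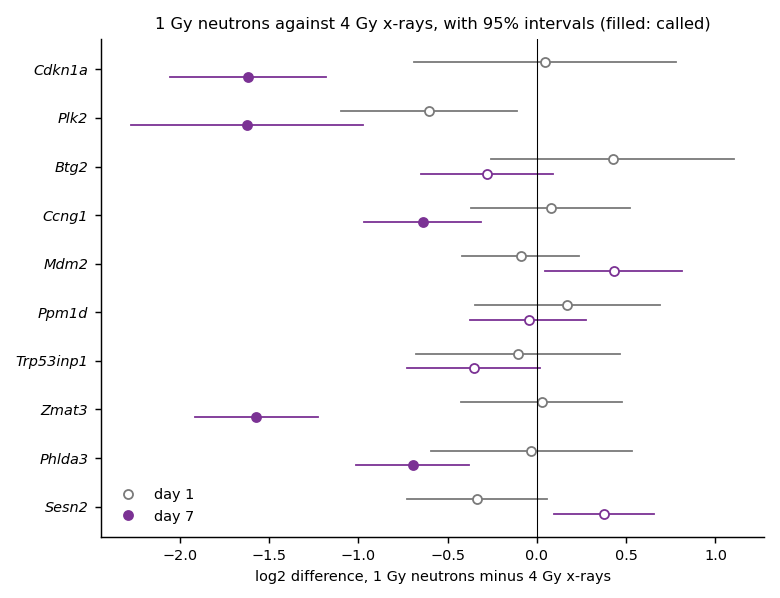
Difference between 1 Gy neutrons and 4 Gy of x-rays (log2, horizontal axis; below 0 is lower after neutrons) for each of the 10 genes with its 95% interval, at day 1 (grey) and day 7 (purple); filled circles are called. At day 1 the intervals of Cdkn1a, Phlda3, Ccng1 and Zmat3 include 0, and at day 7 those of Cdkn1a, Plk2, Zmat3, Phlda3 and Ccng1 lie below it, with Plk2 drawn at its measured value although it was not well above background after neutrons.

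The effect of each exposure at day 7 was compared with its effect at day 1 in a fit of 4 groups. After 1 Gy neutrons the effect on all 5 genes past the variation filter was called lower (7.25% of all genes tested). It changed by -2.75 for Cdkn1a (SE 0.48, adjusted p = 6.51e-05) and -1.80 for Phlda3 (SE 0.29, adjusted p = 2.12e-05) on the log2 scale. The change was -1.07 for Ccng1 (SE 0.24, adjusted p = 0.000898) and -0.95 for Zmat3 (SE 0.23, adjusted p = 0.00196). For Plk2, whose day 7 level was not well above background, the measured values had an adjusted p of 4.53e-05 in limma. With the floor described above, which is no strict limit, the effect on Plk2 fell by 1.56. With normexp Phlda3 alone was called (-2.38), Zmat3 turned to 0.17 and Plk2 to 0.58, and Cdkn1a and Ccng1 changed by -0.88 (adjusted p = 0.148) and -1.07 (adjusted p = 0.022), while with the scan date as a block Cdkn1a and Plk2 were called and Phlda3, Ccng1 and Zmat3 were not (adjusted p = 0.0107, 0.0668 and 0.0191). The Zmat3 call was lost in 6 of 23 fits without 1 mouse. After 1 Gy of x-rays the effects on Cdkn1a (-2.13, SE 0.44, adjusted p = 0.00195), Phlda3 (-1.36, SE 0.34, adjusted p = 0.00871) and Ccng1 (-1.14, SE 0.22, adjusted p = 0.00103) fell (1.85% of all genes tested), and with normexp none was called (adjusted p = 0.543, 0.145 and 0.0968). The Phlda3 call was lost in 13 of 22 fits without 1 mouse. After 4 Gy of x-rays Plk2 alone was called (-1.73, SE 0.42, adjusted p = 0.00247; 9.96% of all genes tested called lower), a call lost in 6 of 22 fits without 1 mouse, and the effect on Cdkn1a changed by -1.08 (95% interval -1.85 to -0.31, adjusted p = 0.0222). That on Phlda3 changed by -1.14 and was not called (adjusted p = 0.00462), but passed without control replicate 2 or irradiated replicate 2 or 3 of day 1 or control replicate 6 of day 7. The effect of 4 Gy of x-rays on Zmat3 was 0.65 larger at day 7 (95% interval 0.22 to 1.09, adjusted p = 0.0159, not called). After 0.25 Gy neutrons the effect on Cdkn1a fell by 2.61 (SE 0.62, adjusted p = 0.0428; 0.0829% of all genes tested), a call lost in 16 of 22 fits without 1 mouse (adjusted p up to 0.0945) and kept without control replicate 4 of day 1, control replicate 1 or 2 of day 7, irradiated replicate 3 or 5 of day 1 or irradiated replicate 4 of day 7. With normexp that change of Cdkn1a turned to 0.23 (adjusted p = 0.725) and Phlda3 was called in its place (-1.42, adjusted p = 0.0209). Between days 3 and 7 after 1 Gy of x-rays the effect on Phlda3 fell by 1.59 (SE 0.35, adjusted p = 0.0226), with 0.71% of all genes tested called lower, and no other of the 5 was called.

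The other genes of the pathway were read from lists, beginning with p53 itself and its regulators. Of the 15 genes of that list 8 were tested, and 3 were called lower after 1 Gy neutrons at day 1, 1 after 1 Gy of x-rays and 3 after 4 Gy of x-rays, beside 10.5%, 4.56% and 18.6% of all genes tested called lower. Trp53, the gene of p53, fell by 0.90 after 1 Gy neutrons and by 1.85 after 4 Gy of x-rays at day 1 (SE 0.18 and 0.19). Atm, the kinase that senses double-strand breaks, fell by 1.21 and 1.83, and Trp53bp1, a repair protein that binds p53, by 0.97 and 1.53 in the same groups. The mean level of 10 T cell markers was 1.35 to 2.68 and 0.72 to 2.01 in these groups, against 2.61 to 3.24 in the controls, and the B cell markers stood as given above; their part in these changes was not tested. Hipk2, a kinase that phosphorylates p53, was called higher after 4 Gy of x-rays at day 1 (0.87) and day 7 (1.55, SE 0.19) and after 1 Gy neutrons at day 7 (2.03, SE 0.15; -0.003 with spike-in centring, described above).

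Among 35 other p53 targets, of which 23 were tested, 8 were called higher and 7 lower after 1 Gy neutrons at day 1 (6.97% and 10.5% of all genes tested), 5 and 2 after 1 Gy of x-rays (3.1% and 4.56%), and 10 and 7 after 4 Gy of x-rays (16.5% and 18.6%). The median log2 changes were 0.88, 0.41 and 0.80, beside 0.05, -0.01 and 0.01 for all genes tested. Psrc1, a microtubule protein that p53 induces, rose by 2.67, 2.42 and 2.38 in these groups and was still higher at day 7 after 1 Gy neutrons (1.92, or -0.12 with spike-in centring) and 4 Gy of x-rays (1.73), all called. Its signal was dim, at a level of -4.33 to -3.79 in the controls of day 1. Normexp values were taken for the 10 genes alone. How far the changes of dim genes in these lists depend on the background correction was not tested. Perp, an adhesion protein, rose by 3.54 after 4 Gy of x-rays at day 1 (SE 0.58, adjusted p = 0.000329). In that group Dcxr (3.27) and Ephx1 (2.63), enzymes of sugar and xenobiotic metabolism that are also made in liver, rose as well, with the hepatocyte level higher than in every control, and its part in these changes was not tested. At day 7, 4 were called higher and 6 lower after 1 Gy neutrons (25.1% and 13.3% of all genes tested), and 4 higher and 3 lower after 4 Gy of x-rays (9.06% and 8.5%).

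The cyclins, their kinases and Pcna, on which p21 acts, numbered 13, of which 9 were tested. Ccna2, the cyclin of DNA replication, fell by 1.52 after 1 Gy of x-rays and by 3.00 after 4 Gy of x-rays at day 1 and rose at day 7 by 2.96 after 1 Gy neutrons (0.92 with spike-in centring), 1.44 after 1 Gy of x-rays and 1.57 after 4 Gy of x-rays, all called. The mitotic cyclin Ccnb2 fell by 1.61 after 4 Gy of x-rays at day 1 and rose at day 7 by 2.87 (0.83 with spike-in centring), 1.46 and 2.38 in the same order. Ccnd1, the cyclin D1 that starts the passage to replication, rose at day 1 by 2.25 after 1 Gy neutrons, 1.55 after 1 Gy of x-rays and 2.37 after 4 Gy of x-rays, and at day 7 by 1.81 after 4 Gy of x-rays. The mitotic kinase Cdk1 rose by 0.90 after 1 Gy neutrons and 1.84 after 1 Gy of x-rays at day 1, and by 1.95 after 4 Gy of x-rays at day 7. Cdk1 was also dim, at a level of -4.08 to -3.55 in the controls of day 1. In all, 5 of the 9 were called higher and 0 lower at day 7 after 4 Gy of x-rays (9.06% and 8.5% of all genes tested), and 3 and 0 after 1 Gy neutrons (25.1% and 13.3%), where the erythroid markers were high. The erythroid markers were also called lower at day 1 after 1 and 4 Gy of x-rays (6 of 10 in each), the groups where the fall of Ccna2 was called. After 1 Gy neutrons at day 1, 3 of 10 erythroid markers were called lower. Ccna2 had a mean level of -0.70 there against 0.89 in the controls, which was not called. At day 7 the erythroid markers were called higher after 1 and 4 Gy of x-rays (7 and 4 of 10). Their part in these changes was not tested. Among 5 other inhibitors of these kinases that were tested, of 6 in the list, Cdkn2b was called higher at day 1 after 1 Gy neutrons (1.88), 1 Gy of x-rays (1.58) and 4 Gy of x-rays (1.84), and Cdkn2c at day 7 after 1 Gy neutrons (2.36, or 0.32 with spike-in centring). Cdkn1c, the inhibitor p57, was called higher after 4 Gy of x-rays at day 1 (1.40), and Cdkn1b, the inhibitor p27, after 1 Gy neutrons at day 7 (1.06, or -0.98 with spike-in centring). In the controls of day 1 Cdkn2b (-3.7 to -2.4) and Cdkn1c (-2.8 to -2.3) were dim as well.

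Relatives of the 10 genes within their families were called in both directions. Of 20 relatives 16 were tested, and 2 were called higher and 3 lower after 1 Gy neutrons at day 1 (6.97% and 10.5% of all genes tested), and 6 and 4 after 4 Gy of x-rays (16.5% and 18.6%). Phlda1, a relative of Phlda3, rose by 2.21, 1.75 and 3.41 after 1 Gy neutrons, 1 Gy of x-rays and 4 Gy of x-rays at day 1, while Plk3, a relative of Plk2 that also acts in stress responses, rose by 1.54 after 1 Gy neutrons and 2.70 after 4 Gy of x-rays. Trp53inp2 rose by 2.98 after 4 Gy of x-rays at day 1 (SE 0.47), where the hepatocyte level was above that of every control. After 0.25 Gy neutrons at day 1 the hepatocyte level ran from 0.1 to 8.1. In that group Phlda1 ran from -0.7 to 3.3, Trp53inp2 from 0.4 to 4.6 and Plk3 from -0.7 to 0.4. The part of the hepatocyte level in the changes of these 3 genes was not tested. Btg3 was called lower after 1 Gy of x-rays and 4 Gy of x-rays at day 1 (-0.96 and -1.48) and higher after 1 Gy neutrons at day 7 (2.76, SE 0.22; 0.72 with spike-in centring), where Btg2 was called lower. Mdm4, the partner of Mdm2, was not called in any comparison with controls, and after 0.25 Gy neutrons no gene of these lists past the variation filter was called at any day. Tested over all detected genes, Ccnb2 was called higher (1.10, SE 0.24, adjusted p = 0.0482; 0.547% of all detected genes) and Trp53i11, another p53 target, lower (-0.95, SE 0.20, adjusted p = 0.0434; 0.988%) at day 3 after 0.25 Gy neutrons, both chosen after their values were seen.

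Over the 72 arrays, the level of Rhoc, a small GTPase, was the most like that of Cdkn1a (Pearson's r = 0.859), followed by 4 transcripts without a gene symbol (0.852 to 0.858), and Phlda3 (0.792), Ccng1 (0.777), Zmat3 (0.765) and Plk2 (0.734) ranked 73, 95, 120 and 164 of 10851 genes. The points share the exposures and days, so these values describe the differences between groups as well as those between mice. After removal of the group means, Cdkn1a and Plk2 kept an r of 0.622 over the same arrays, and Cdkn1a and Phlda3 one of 0.09. Within groups Mdm2 and Btg2 (0.794), Trp53inp1 and Btg2 (0.781) and Ppm1d and Btg2 (0.758) varied together. There the hepatocyte level had an r of -0.432 with Btg2, -0.411 with Ccng1, -0.401 with Ppm1d and -0.39 with Mdm2. Its r was -0.265 with Phlda3 and with Trp53inp1, -0.178 with Zmat3, -0.018 with Cdkn1a, -0.01 with Sesn2 and 0.21 with Plk2. These are descriptions of 72 arrays and carry no test.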

How the data were processed

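Blood RNA of 72 mice was hybridised to 72 one-colour Agilent mouse 44K arrays of version 2, 1 array per mouse. The authors deposited the scanner output of Agilent Feature Extraction 12.0.2, whose processed intensity is the spot signal after the software's own background correction, and a series table of log2 values. Each array's log2 intensity was centred here on the median of its detected probes. Of the table's columns 12 of 72 follow their own array, and 21 an array of another group, so the table served only as an alternative for 0.25 Gy neutrons at day 1; which side is assigned wrongly is unsettled. Control spots were left out, 28330 of 39429 probes were named through accessions, and each gene was read from its brightest probe with under 25% of spots near background over the 56 arrays of days 1 and 7. As in the methods of the study, genes also had to differ 1.5-fold from their median on 20% of those arrays. Irradiated groups were compared with the controls of the day, with each other and between days with two-sided moderated tests (limma 3.58.1 in R 4.3.3), fitted on the groups compared, and the change of an effect between days as an interaction. Cell type levels are means over marker lists. The tests were tried on simulated data. The number of arrays limits the precision. The 10 genes and all lists were chosen with earlier results of these data known. Alternatives covered centring, background, filters, probes, scan date, slide, hepatocyte level, replicate number and the random variance test; the slide and the low-hepatocyte comparisons were added after seeing the data.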

Additional observations from a re-analysis of the deposited data

Results flagged for a closer look

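Of 130 sets of mice looked at, 1 per gene and group, 14 held a mouse that stood apart by Dixon's criterion, which chance gives in about 1 of 20. Replicate 5 of 0.25 Gy neutrons at day 1 had its group's highest hepatocyte level (8.1) and lowest B cell (0.20) and T cell (1.30) levels. It stood apart for Btg2 (level 1.05), Mdm2 (2.43) and Ppm1d (-2.12), below the rest of its group, and the part of the cell types was not tested. The others were Ccng1 after 1 Gy neutrons at day 7 (replicate 4, 0.14), Mdm2 in the controls of day 7 (replicate 2, 2.85) and after 1 Gy of x-rays at day 7 (replicate 1, 2.94), and Phlda3 after 0.25 Gy neutrons at day 7 (replicate 2, 0.52). Ppm1d stood apart in control replicate 4 of day 1 (-1.15) and in replicate 3 after 1 Gy of x-rays at day 3 (-0.40). Sesn2 did so in control replicate 5 of day 3 (0.92) and of day 7 (1.31) and in replicate 1 after 1 Gy of x-rays at day 3 (1.59), and Trp53inp1 in control replicate 2 of day 7 (1.96) and in replicate 1 after 1 Gy of x-rays at day 3 (1.11).

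Differences between exposures that passed the test were 1.40 for Plk2 between 1 Gy neutrons and 1 Gy of x-rays at day 1, and 0.88 for Mdm2 and -0.75 for Btg2 at day 7. Between 1 Gy neutrons and 4 Gy of x-rays at day 7 they were -1.62 for Cdkn1a, -0.64 for Ccng1, -0.70 for Phlda3, -1.57 for Zmat3 and, in the measured values, -1.62 for Plk2 (SE 0.30). Plk2 was not well above background after neutrons, and with the floor described above it was 0.44 lower there. The effect changed from day 1 to day 7 after 0.25 Gy neutrons by -2.61 for Cdkn1a, and after 1 Gy neutrons by -2.75 for Cdkn1a, -1.07 for Ccng1, -1.80 for Phlda3, -0.95 for Zmat3 and, in the measured values, -2.75 for Plk2 (SE 0.46), or a fall of 1.56 with that floor. After 1 Gy of x-rays it changed by -2.13 for Cdkn1a, -1.14 for Ccng1 and -1.36 for Phlda3, and after 4 Gy of x-rays by -1.73 for Plk2. All are on the log2 scale, and the errors not given here stand beside the same values above.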

How the results depend on the processing

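Counts here are of the 10 genes called among those past the variation filter, which was set anew under each setting, so that 7 of the 10 were tested with normexp and 10 with spike-in centring in place of 5. The share of all genes called is not given for each setting. The counts therefore show how far the calls depend on the processing and cannot be set against all genes. Under the random variance test, the mean over probes and the series table (0 called, 0.25 Gy neutrons at day 1) every count lay within 1.5 times the value reported, and for single genes the mean over probes moved 2 of 180 values beyond the spread between mice. At day 1, normexp gave 3 calls after 1 Gy neutrons, 0 after 1 Gy of x-rays and 2 after 4 Gy of x-rays, in place of 5, 4 and 5; the scan date as a random block gave 1 after 1 Gy of x-rays, the hepatocyte covariate 3 after 4 Gy of x-rays and the slide 1 after 0.25 Gy neutrons. For 1 Gy of x-rays at day 3, with 1 call, spike-in centring, the hepatocyte covariate, the low-hepatocyte arrays alone and the lack of a detection filter gave 0, the slide 2 and the scan date as a random block 3. At day 7, spike-in centring gave 4 calls after 0.25 Gy neutrons in place of 0 and 9 after 1 Gy neutrons in place of 1, all of lower levels. The median change of all genes tested was itself -1.08 and -1.73 on that scale. For 1 Gy neutrons the quantile, the 75th percentile, normexp and dim-missing settings gave 2 calls each, the lack of a 1.5-fold filter 3 and the scan date block 0, and for 4 Gy of x-rays normexp gave 1 in place of 4 (Cdkn1a; Zmat3, no longer past the variation filter, was called over all detected genes).

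Between 1 Gy neutrons and 1 Gy of x-rays at day 1, spike-in centring, normexp and the scan date block gave 0 calls in place of 1; at day 7, in place of 0, spike-in centring gave 3, quantile normalization 1, normexp 4, missing dim spots 3 and the lack of a 1.5-fold filter 2. Against 4 Gy of x-rays the slide gave 1 call at day 1 in place of 0, and at day 7, in place of 5, spike-in centring gave 10, the 75th percentile and the scan date block 3, normexp 0 and the low-hepatocyte arrays 2. For the change from day 1 to day 7, the single call after 0.25 Gy neutrons became 4 with spike-in centring and 0 with dim spots missing, without the detection filter, without the 1.5-fold filter or with the hepatocyte covariate. After 1 Gy neutrons 5 calls became 10 with spike-in centring, 3 with the 75th percentile, 1 with normexp and 2 with the scan date block. After 1 Gy of x-rays 3 calls became 0 with normexp and 1 with the scan date block, and after 4 Gy of x-rays 1 call became 0 with spike-in centring, quantile normalization or normexp and 2 without the 1.5-fold filter.

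Of values called in at least one of both settings, directions reversed in these cases. For 1 Gy neutrons against controls at day 7, spike-in centring gave -1.78 for Ccng1, -0.58 for Cdkn1a, -1.23 for Mdm2, -1.51 for Phlda3 and -1.95 for Sesn2, and normexp -0.49 for Mdm2. Against 1 Gy of x-rays at day 7, spike-in centring gave -0.22 for Mdm2, and normexp -0.50 for Mdm2 and 1.33 for Plk2. Against 4 Gy of x-rays at day 7, spike-in centring gave -1.82 for Mdm2 and -1.87 for Sesn2, and normexp 0.77 for Plk2. For the change from day 1 to day 7, normexp gave 0.23 for Cdkn1a after 0.25 Gy neutrons, and 0.58 for Plk2 and 0.17 for Zmat3 after 1 Gy neutrons, where spike-in centring gave -2.25 for Mdm2, -2.34 for Ppm1d and -2.53 for Sesn2. The spike-in reversals follow from the shift of every gene by the same amount. The others came with normexp, which adds 50 units to every spot. At day 7 after 1 Gy neutrons the intensity was 3.7 to 14.2 units for Plk2, 19.3 to 39.4 for Zmat3 and 1327 to 2367 for Mdm2. For Cdkn1a it was 17.1 to 73.4 at day 7 after 0.25 Gy neutrons. The part of the added units in these reversals was not tested. Values called in neither setting also changed sign, in 138 cases of which 36 were with normexp and 32 with spike-in centring, among them Plk2 with normexp at day 7 after 0.25 Gy neutrons (1.23 in place of -1.13) and 1 Gy neutrons (1.24 in place of -0.76).

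With 1 array left out in turn, the counts at day 1 were 0 to 2 after 0.25 Gy neutrons, 4 to 5 after 1 Gy neutrons, 3 to 4 after 1 Gy of x-rays and 4 to 5 after 4 Gy of x-rays. At day 3 they were 0 after 0.25 Gy neutrons and 0 to 2 after 1 Gy of x-rays, and at day 7 0 after 0.25 Gy neutrons, 1 after 1 Gy neutrons, 0 to 1 after 1 Gy of x-rays and 4 after 4 Gy of x-rays. Between neutrons and x-rays they were 0 to 1 and, at day 7, 0 against 1 Gy and 3 to 5 against 4 Gy of x-rays. For the change between days they were 0 to 2, 4 to 5, 2 to 3 and 0 to 2 after 0.25 Gy neutrons, 1 Gy neutrons, 1 Gy of x-rays and 4 Gy of x-rays.

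Animals of different groups share only a number: of 52 same-numbered pairs 20 correlated over 0.1, every pair did so in 0 of 10 comparisons, and 9 of 56 arrays lay closest to their own number. The replicate block changed the count to 2 for 1 Gy of x-rays at day 3, 0 for 1 Gy neutrons and 1 for 1 Gy of x-rays at day 7, 0 between 1 Gy neutrons and 1 Gy of x-rays at day 1, 3 between 1 Gy neutrons and 4 Gy of x-rays at day 7 and 0 for the change after 0.25 Gy neutrons. Signal near background limits Plk2 at day 7.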
